A study of Mus musculus with 8 samples.

Results

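HRD1, listed in the files under the symbol Syvn1, is a ubiquitin ligase of the endoplasmic reticulum (ER) membrane that tags proteins for degradation. The mRNA levels of 10 genes around it were followed: Entpd5, Cpt2 and Hsd17b4, whose metabolic proteins the study names as HRD1 targets, the AMPK subunit genes Prkaa1, Prkaa2, Prkab1 and Prkag1, the AMPK kinase gene Stk11, and Akt1 and Akt2. They were taken by symbol from a fixed list, not by a threshold on their values, and make up 10 of the 23337 gene symbols in the count files. Liver RNA was sequenced from 12-week-old C57BL/6 mice that were either named wild type (WT) or labelled Hrd1-/-. The latter are called HRD1Alb here, because a Cre transgene driven by the albumin promoter deletes the floxed gene in the liver. The study's supplement calls the knockout hepatocyte-specific. Which liver cells keep the gene was not tested here. The study describes its controls as floxed mice without the Cre transgene. It names the sequenced controls only WT. Livers came from fasted mice or from mice given food again for 4 h after the fast, which gave 4 groups (WT fasted, HRD1Alb fasted, WT refed, HRD1Alb refed) of 2 samples each. The labels do not say that the 2 samples of a group came from separate animals, so p-values measure only the spread between these samples, which may be technical.

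AMPK is a kinase of 3 kinds of subunit, a catalytic α, a scaffolding β and a nucleotide-sensing γ subunit, that is switched on when ATP runs low and turns down lipid synthesis in the liver. LKB1, the product of Stk11, phosphorylates the α subunit. AKT kinases act in the opposite nutritional state, downstream of the insulin receptor after a meal. All of these proteins are controlled to a large extent after translation, by phosphorylation or by degradation, and read counts report only their mRNA.

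Levels are given in CPM, the count of a gene relative to the total of its library, scaled by edgeR's TMM factors, which ranged from 0.837 to 1.22 over libraries of 40210576 to 49117080 counts. All 10 genes passed the filter on low counts. The smallest count of any of them in a library was 423, for Prkaa1, and the largest 44347, for Hsd17b4, so that no value was near the limit of detection. A gene was called changed at an adjusted p under 0.05 in edgeR's quasi-likelihood test over 14328 genes.

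Syvn1 itself was measured at 111 and 99.8 CPM in the WT fasted samples (105 ± 7.68, SD, n = 2) and at 32.6 and 31.5 CPM in the HRD1Alb fasted samples (32 ± 0.81, SD, n = 2). After refeeding it was at 637 and 305 CPM in WT liver and at 453 and 132 CPM in HRD1Alb liver. The library labelled HRD1Alb refed replicate 1 thus lay between both WT refed libraries, against its label, although the counts cover the whole gene and the allele keeps exons outside the deleted part. HRD1Alb refed replicate 2 stood apart in another way. Its log2 ratio to replicate 1 fell with exon length across genes (Spearman's rho -0.509, against -0.116 to 0.0073 in the other groups, as a description), and 3204 genes differed at least 2-fold between these replicates, compared with 424 to 1141 in the other groups. The genotype effect of each of the 10 genes in refed liver is therefore also given without either library.

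Cell type markers moved with genotype. The summed level of 6 hepatocyte markers, none of which was at 0 in any group, was 103656 to 140879 CPM in WT and 58856 to 98576 CPM in HRD1Alb libraries, and none of the 6 was called in edgeR. The 5 Kupffer cell markers summed to 62.5 to 74.4 CPM in WT and 133 to 250 CPM in HRD1Alb libraries, and 2 of them rose in fasted and all 5 in refed liver. The 5 stellate and fibroblast markers summed to 143 to 310 CPM against 307 to 435 CPM, and the 5 lymphocyte markers to 6.23 to 9.21 CPM against 13.5 to 17.8 CPM, with 2 of each list called higher in refed liver. None of the 5 endothelial or the 5 cholangiocyte markers was called in either state. In bulk liver, fewer cells of a type and less RNA per cell cannot be told apart, and the part of these shifts in the genotype results below was not tested.

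The scaling also moved with genotype. The TMM factors were 0.837 to 0.877 in WT fasted and 1.11 to 1.13 in HRD1Alb fasted libraries. When libraries were scaled by their totals alone, an alternative added after the data were seen, the median log2 fold change of all genes for HRD1 deletion went from -0.0243 to 0.359 in fasted liver and from 0.0438 to 0.264 in refed liver. On that scale the median of the 10 genes was 0.085 in fasted and 0.003 in refed liver, with 4 and 3 of them below 0, among them Prkaa1 at -0.10 and -0.41 and Prkaa2 at -0.14 and -0.73. All other values below are on the TMM scale, relative to the bulk of genes.

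**Figure D1:**
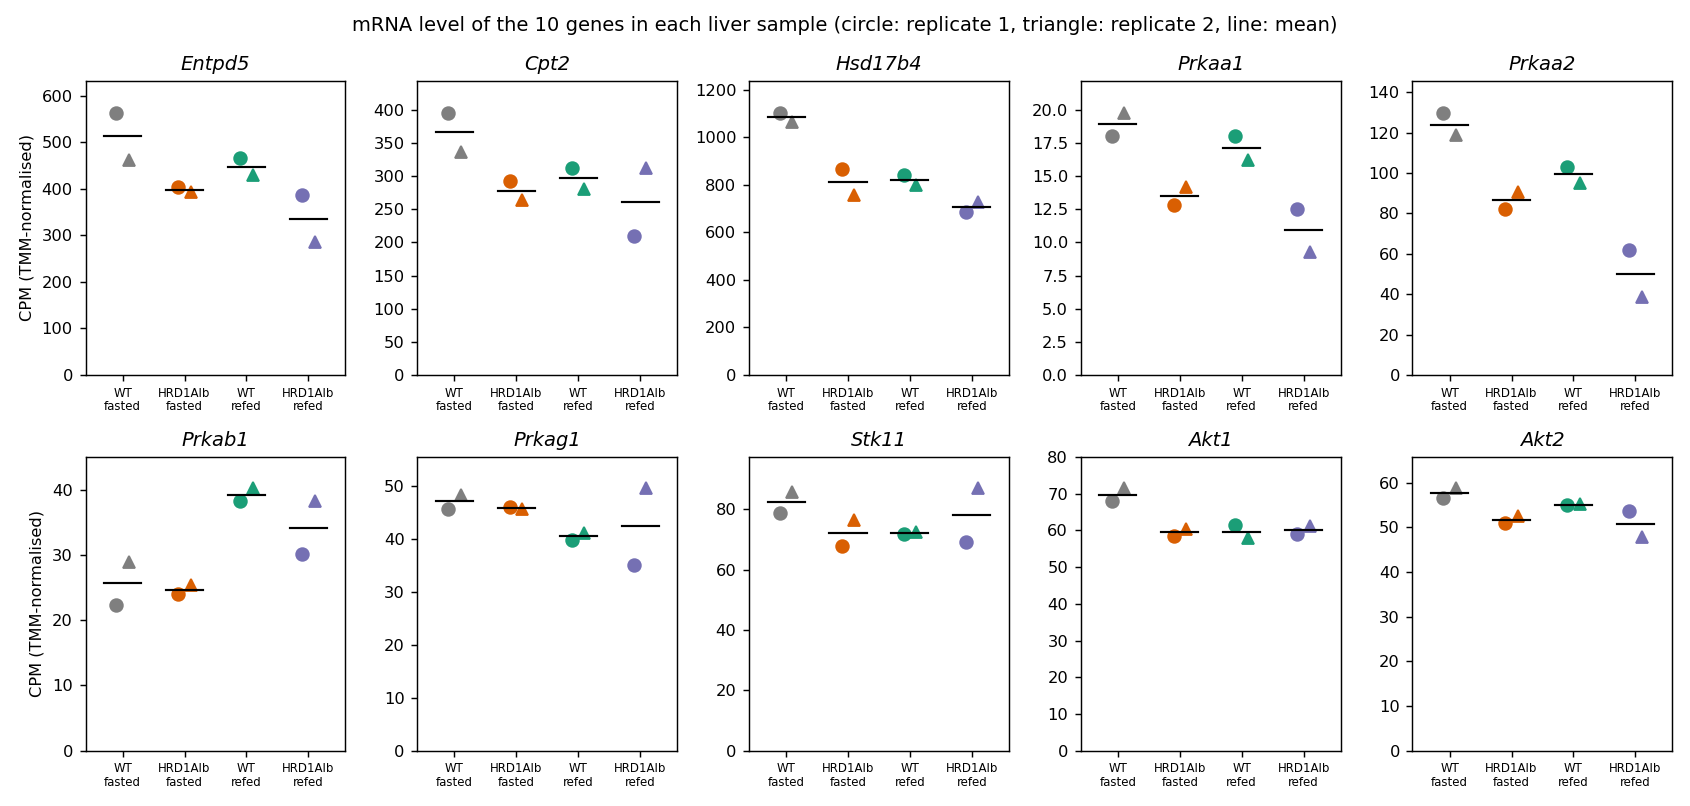
TMM-scaled CPM (linear axes from 0) of each of the 10 genes in the 8 libraries, with circles for replicate 1, triangles for replicate 2 and a line at the mean of each group. Prkaa2 is lowest in the HRD1Alb refed libraries, at 61.9 and 38.4 CPM, and Prkab1 is the gene whose refed libraries lie above its fasted ones, whereas Akt1 and Akt2 stay between 47.9 and 71.5 CPM throughout.

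Per kilobase of exon, the 3 HRD1 target genes among them were the most abundant of the 10 in WT fasted liver. Hsd17b4 had 319 ± 8.36 CPM per kb (SD, n = 2 for this and the following), Cpt2 153 ± 17.4 and Entpd5 84.9 ± 12. Prkag1 followed at 21.6 ± 0.905, Stk11 at 18 ± 1.05, Akt1 at 17 ± 0.635 and Prkaa2 at 15.6 ± 1 CPM per kb, where the neighbours from Stk11 to Prkaa2 differed by less than the sum of their SDs. Prkab1 at 8.37 ± 1.49 and Akt2 at 8.09 ± 0.213 CPM per kb did not differ beyond their spread, and Prkaa1 was the least abundant at 4.06 ± 0.277. Among the AMPK catalytic subunit genes, Prkaa2 thus exceeded Prkaa1 per length in every library, by 4.22 and 3.5 times in WT fasted, 3.76 and 3.73 times in HRD1Alb fasted, 3.35 and 3.43 times in WT refed, and 2.89 and 2.42 times in HRD1Alb refed liver. Both ratios of the last group were below those of every other library. Prkaa2 has 7969 bp of exons and Prkaa1 4655 bp. The ratios were not corrected for the trend on exon length between the HRD1Alb refed libraries, and its part in them was not tested. Refed values of both genes with the trend on transcript length removed are given below. Akt1 exceeded Akt2 per length by 1.83 to 2.23 times in the 8 libraries, with no such separation of the groups.

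In fasted liver, edgeR called none of the 10 genes for HRD1 deletion, where 1.35% of all tested genes were called. DESeq2 and limma-trend also called 0 of the 10. An unadjusted p under 0.05 in edgeR was reached by 2 of the 10 and by 2630 of the 14328 tested genes. All 10 estimates were below 0, with a median log2 fold change of -0.297 beside -0.0243 for all tested genes, and for 8 of the 10 both HRD1Alb samples lay below both WT samples, as they did for 34.2% of all tested genes. In refed liver, 1 of the 10 was called, Prkaa2, which fell (1 also in limma-trend, 2 in DESeq2). There, 11.9% of all tested genes were called, with 12.1% in limma-trend and 22.2% in DESeq2. The median was -0.193 beside 0.0438 for all genes, 7 estimates were below 0, and both samples were lower for 6 of the 10, beside 30.1% of all tested genes.

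Refeeding changed none of the 10 in WT liver (2 at an unadjusted p under 0.05, 0 in DESeq2 and limma-trend), where 2.61% of all tested genes were called, and none in HRD1Alb liver (2 at an unadjusted p under 0.05, 1 in DESeq2, 0 in limma-trend), where 10.5% were called. DESeq2 called 20.4% of all tested genes for refeeding in HRD1Alb liver. Of the 14328 tested genes, 2339 in WT and 4538 in HRD1Alb liver had an unadjusted p under 0.05 in edgeR. In WT liver, both refed samples were lower than both fasted samples for 7 of the 10 genes, with 29.6% of all tested genes, and higher for 1, with 30.8%. In HRD1Alb liver they were lower for 4, with 29.5% of all tested genes, and higher for 1, with 29.2%. The difference between the genotypes in the response to refeeding (interaction) was called for none of the 10 and for 0% of all tested genes in edgeR, with 0 of the 10 and 1209 of all genes at an unadjusted p under 0.05. The estimates of this difference ran from -0.46 ± 0.33 (SE) for Prkaa2 to 0.30 ± 0.24 for Stk11 on the log2 scale. The 4 comparisons share samples in pairs and are not independent of each other.

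**Figure D2:**
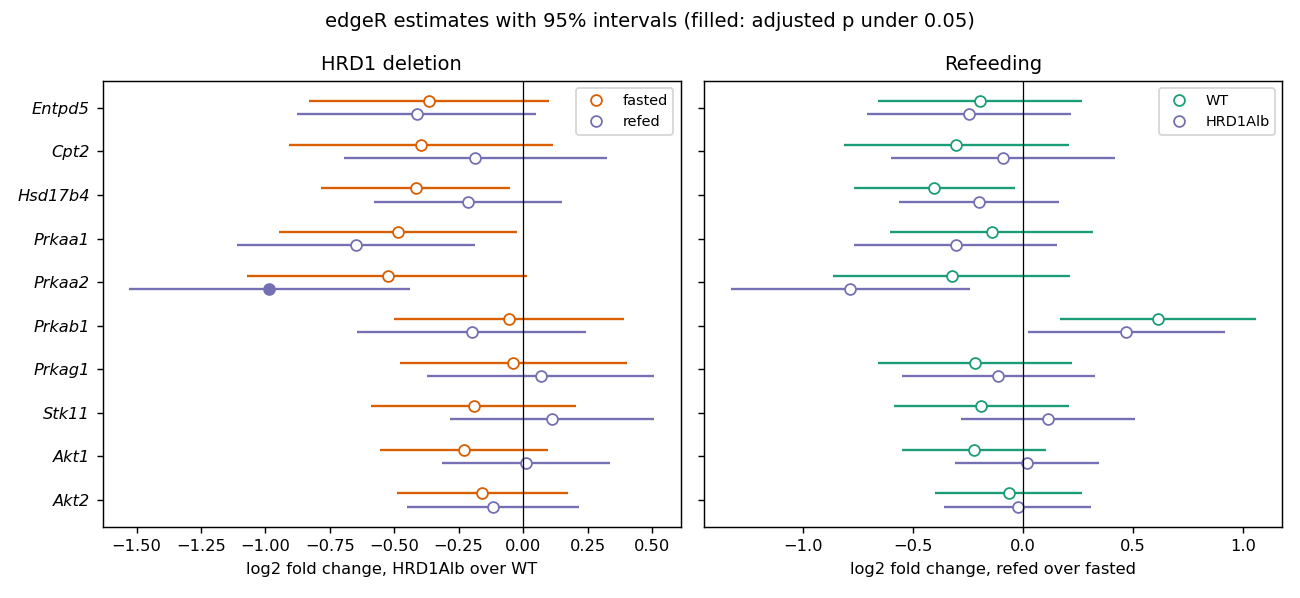
Log2 fold change with its 95% interval from edgeR for each of the 10 genes, for HRD1Alb over WT in fasted and refed liver (left) and for refed over fasted in WT and HRD1Alb liver (right), with filled points at an adjusted p under 0.05. The only filled point is Prkaa2 in refed liver, at -0.99, and in the left panel every fasted estimate lies below 0.

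Entpd5 (chromosome 12, 84373857 to 84409029, GRCm38, minus strand) encodes an ER nucleoside diphosphatase that serves the folding of glycoproteins. It was at 564 and 462 CPM in WT fasted, 403 and 393 CPM in HRD1Alb fasted, 466 and 429 CPM in WT refed, and 387 and 285 CPM in HRD1Alb refed liver. The HRD1Alb samples were below the WT samples in both feeding states, with no overlap. The log2 fold change for HRD1 deletion was -0.37 ± 0.20 (SE, adjusted p = 0.386) in fasted liver and -0.41 ± 0.20 (adjusted p = 0.186) in refed liver, so that neither passed the threshold. The 95% intervals, -0.83 to 0.10 and -0.88 to 0.05, both contain 0 and small increases. Without the library labelled HRD1Alb refed replicate 1 the refed value was -0.66 (called, in a fit that called 52.8% of all genes), and without replicate 2 it was -0.21 (not called).

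Cpt2 (chromosome 4, 107903981 to 107923610, minus strand) encodes carnitine palmitoyltransferase 2, which releases long-chain acyl groups from carnitine inside the mitochondrion for β-oxidation. Its values were 396 and 337 CPM in WT fasted, 292 and 264 CPM in HRD1Alb fasted, 313 and 280 CPM in WT refed, and 210 and 312 CPM in HRD1Alb refed liver. The fasted genotypes did not overlap, whereas the HRD1Alb refed libraries lay on either side of the WT refed ones. The log2 fold change was -0.40 ± 0.22 (SE, adjusted p = 0.393) in fasted and -0.19 ± 0.22 (adjusted p = 0.563) in refed liver. The sign of the refed value rested on one library. It was 0.07 without the library labelled HRD1Alb refed replicate 1 and -0.50, past the threshold, without replicate 2.

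Hsd17b4 (chromosome 18, 50128201 to 50196269, plus strand) encodes the D-bifunctional protein of peroxisomal β-oxidation. It was at 1105 and 1065 CPM in WT fasted, 867 and 758 CPM in HRD1Alb fasted, 840 and 801 CPM in WT refed, and 686 and 728 CPM in HRD1Alb refed liver. Every HRD1Alb library was below the WT libraries of the same feeding state, and both WT refed libraries were below both WT fasted ones. The log2 fold change for HRD1 deletion was -0.42 ± 0.16 (SE, adjusted p = 0.216) in fasted and -0.21 ± 0.16 (adjusted p = 0.352) in refed liver. For refeeding in WT liver it was -0.40 ± 0.16 (adjusted p = 0.257). The 95% intervals of the fasted genotype value (-0.78 to -0.05) and the WT refeeding value (-0.77 to -0.04) excluded 0. These intervals are not adjusted for the number of genes. The refed genotype value was -0.18 without the library labelled HRD1Alb refed replicate 1 and -0.26 without replicate 2. Leaving both HRD1Alb refed libraries out of the model, an alternative added after the data were seen, gave smaller SEs (0.11 for Hsd17b4). Hsd17b4 was then called in fasted liver at -0.41 (adjusted p = 0.0401) and for refeeding in WT liver at -0.40 (adjusted p = 0.0485), where 22.2% and 18% of all genes were called.

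The study also names the products of Rmnd1 and Ern1 as HRD1 targets and that of Atp5d as a binding partner. Atp5d, a subunit of mitochondrial ATP synthase, had log2 fold changes of -0.13 ± 0.35 (SE, adjusted p = 0.896) in fasted and 0.72 ± 0.36 (adjusted p = 0.194) in refed liver, where its HRD1Alb libraries were far apart, at 268 and 630 CPM. Ern1, which encodes the ER stress sensor IRE1α, had values of -0.38 ± 0.73 (adjusted p = 0.84) and -0.85 ± 0.74 (adjusted p = 0.426), with 30.2 and 3.88 CPM in the HRD1Alb refed libraries. Its refed value was -3.00 without the library labelled HRD1Alb refed replicate 1 and -0.0359 without replicate 2. Rmnd1 had 0 to 2 counts in each library and was not tested. The study measured its mRNA by qPCR and its protein in liver of both genotypes, so these counts are not read as absence of the transcript. Why they were so low was not tested.

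The AMPK α genes were the lowest of the 10 in HRD1Alb relative to WT liver. Prkaa1 (chromosome 15, 5143861 to 5181899, plus strand) encodes the widely expressed α1 subunit and Prkaa2 (chromosome 4, 105029874 to 105109890, minus strand) the α2 subunit. On the TMM scale, both HRD1Alb samples of each feeding state were below both WT samples for these genes, as for Entpd5, Hsd17b4 and Akt2. This order held for 34.2% of all tested genes in fasted and 30.1% in refed liver. The share with this order in both states was not computed. With library totals, fasted log2 fold changes were 0.0142 for Entpd5, 0.226 for Akt2, -0.1 for Prkaa1 and -0.142 for Prkaa2. The order of Entpd5 and Akt2 thus depended on the scaling. For the α genes, the 250 bases before their RefSeq starts (GRCm38.p6) are shown, written 5′ to 3′ on the strand of the gene. Matches to the GC box letters GGGCGG on either strand are in capitals:
Prkaa1 (chr15:5143611-5143860, plus strand): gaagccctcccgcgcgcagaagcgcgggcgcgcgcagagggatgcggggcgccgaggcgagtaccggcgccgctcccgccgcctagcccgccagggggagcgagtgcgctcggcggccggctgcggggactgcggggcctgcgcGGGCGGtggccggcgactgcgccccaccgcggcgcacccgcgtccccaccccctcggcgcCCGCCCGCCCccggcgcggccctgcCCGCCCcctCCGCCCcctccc
Prkaa2 (chr4:105109899-105110148, minus strand): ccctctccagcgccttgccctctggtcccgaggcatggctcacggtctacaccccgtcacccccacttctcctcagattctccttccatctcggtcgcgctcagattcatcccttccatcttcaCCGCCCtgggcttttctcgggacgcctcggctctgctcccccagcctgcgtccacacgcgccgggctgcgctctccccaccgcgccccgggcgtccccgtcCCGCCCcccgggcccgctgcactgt
The Prkaa1 window holds 5 matches, of which 2 overlap, and the Prkaa2 window 2. The GC content of the windows is 85.2% and 70%. GGGCGG occurs in 32.7% of the 32851 promoter windows of the same length, so a match here is a description and no sign of a shared regulator. The stress element letters CCACG, TGACGTGG, TGACGTCA and TGATGCAA, searched on both strands, were in neither window, and CCAAT was in neither. They occur in 28.3%, 0.563%, 1.55%, 0.791% and, for CCAAT, 33.8% of the 32851 windows, so their absence here is also only a description.

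Prkaa1 was at 18 and 19.8 CPM in WT fasted, 12.8 and 14.2 CPM in HRD1Alb fasted, 18 and 16.2 CPM in WT refed, and 12.5 and 9.27 CPM in HRD1Alb refed liver. In each feeding state, both HRD1Alb libraries were below both WT libraries. The log2 fold change was -0.49 ± 0.20 (SE, adjusted p = 0.252) in fasted and -0.65 ± 0.20 (adjusted p = 0.0735) in refed liver. Neither passed the threshold. Their 95% intervals, -0.95 to -0.02 and -1.11 to -0.185, excluded 0 but are not adjusted for the number of genes. The refed value was called by DESeq2 (adjusted p = 0.0239) and with offsets for transcript length (adjusted p = 0.0384). It was -0.89 (adjusted p = 0.00202) without the library labelled HRD1Alb refed replicate 1 and -0.46 (adjusted p = 0.0543) without replicate 2.

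Prkaa2 was at 130 and 119 CPM in WT fasted, 82.3 and 90.6 CPM in HRD1Alb fasted, 103 and 95.2 CPM in WT refed, and 61.9 and 38.4 CPM in HRD1Alb refed liver. Here, too, both HRD1Alb libraries of each feeding state were below both WT ones. In refed liver Prkaa2 fell to 0.505 of its WT level, a log2 fold change of -0.99 ± 0.23 (SE, 95% interval -1.53 to -0.44, adjusted p = 0.0398). In fasted liver the value was -0.52 ± 0.23 (95% interval -1.07 to 0.02, adjusted p = 0.286), and the difference between both effects, -0.46 ± 0.33, did not pass the threshold (adjusted p = 0.65). Refeeding had a log2 fold change of -0.33 ± 0.23 (adjusted p = 0.575) in WT and -0.79 ± 0.23 (95% interval -1.33 to -0.24, adjusted p = 0.0719) in HRD1Alb liver. The latter was called by DESeq2 (adjusted p = 0.0173) and, at -0.53, with length offsets (adjusted p = 0.0449).

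The size of the Prkaa2 decrease depended on the libraries that stood apart, and its direction did not. Without the library labelled HRD1Alb refed replicate 1 it was -1.38 (adjusted p = 0.000225), and without replicate 2 it was -0.69 (adjusted p = 0.0109). Leaving out any one of the 6 libraries of the other groups kept it between -1.05 and -0.93 with an adjusted p of 0.0673 to 0.204, past the threshold in none of them, and fitting only the refed groups gave -0.98 (adjusted p = 0.177). With library totals in place of TMM it was -0.73 (adjusted p = 0.138). In fasted liver, both α genes were called when both HRD1Alb refed libraries were left out, Prkaa1 at -0.48 (adjusted p = 0.0251) and Prkaa2 at -0.52 (adjusted p = 0.0146), beside 22.2% of all genes.

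**Figure D3:**
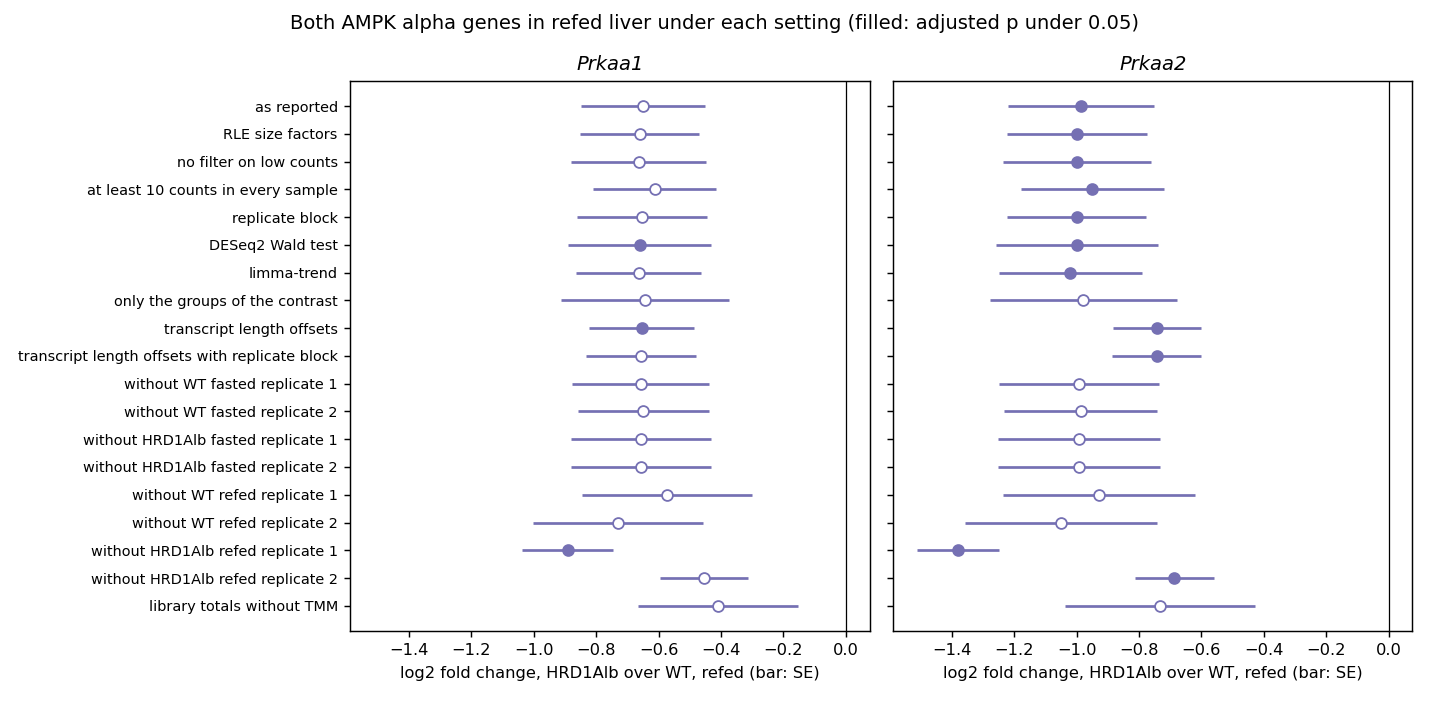
Log2 fold change of HRD1Alb over WT in refed liver for Prkaa1 (left) and Prkaa2 (right) as reported and under each other setting, with bars of 1 SE and filled points at an adjusted p under 0.05. Every point lies below 0, from -0.89 to -0.41 for Prkaa1 and from -1.38 to -0.69 for Prkaa2, and the values without the library labelled HRD1Alb refed replicate 1 are the lowest of both panels.

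Prkaa2 also has the longest exons of the 10 genes, 7969 bp, longer than 83% of the tested genes with a length. Between the HRD1Alb refed libraries its log2 ratio of replicate 2 to replicate 1 was -0.69, and those of Entpd5 (6039 bp) and Prkaa1 (4655 bp) were -0.44 and -0.43. Akt2, the second longest at 7131 bp, was at -0.17, and Stk11, close to Prkaa1 in length at 4580 bp, was at 0.33. The shortest, Prkag1 (2175 bp) and Cpt2 (2391 bp), had ratios of 0.49 and 0.57. With each library's trend on transcript length removed, the refed log2 fold change of Prkaa2 was -0.74 ± 0.14 (SE, adjusted p = 0.0165) and that of Prkaa1 -0.65 ± 0.17, while Prkag1 went from 0.07 to -0.21 and Akt2 from -0.12 to 0.12, neither of them called.

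**Figure D4:**
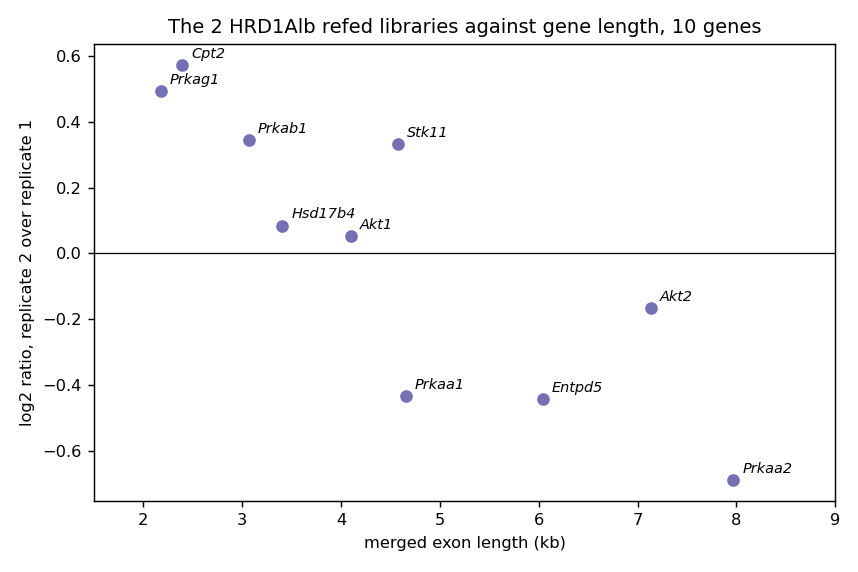
Log2 ratio of the 2 HRD1Alb refed libraries (replicate 2 over replicate 1, TMM-scaled) against merged exon length in kb, 1 point for each of the 10 genes. The short genes Cpt2 and Prkag1 are above 0 and the long genes Prkaa2, Akt2 and Entpd5 below 0, and the points share the same 2 libraries.

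Prkab1 (chromosome 5, 116013586 to 116024508, minus strand), which encodes the β1 scaffold, was the one gene of the 10 whose refed libraries all lay above its fasted ones. It was at 22.4 and 28.9 CPM in WT fasted, 24.1 and 25.4 CPM in HRD1Alb fasted, 38.3 and 40.3 CPM in WT refed, and 30.2 and 38.3 CPM in HRD1Alb refed liver. The lowest refed library was at 30.2 CPM and the highest fasted one at 28.9 CPM. The log2 fold change for refeeding was 0.62 ± 0.19 (SE, adjusted p = 0.164) in WT and 0.47 ± 0.19 (adjusted p = 0.144) in HRD1Alb liver. Neither was called. Their 95% intervals, 0.17 to 1.06 and 0.02 to 0.92, excluded 0 but are not adjusted for the number of genes. Without both HRD1Alb refed libraries the WT value was called at 0.62 (adjusted p = 0.0183). For HRD1 deletion the values were -0.05 ± 0.19 (adjusted p = 0.917) in fasted and -0.20 ± 0.19 (adjusted p = 0.471) in refed liver, with 95% intervals of -0.50 to 0.39 and -0.65 to 0.25. The refed genotype value was -0.0445 without the library labelled HRD1Alb refed replicate 1 and -0.39 without replicate 2, and neither was called. The response to refeeding in HRD1Alb liver was called without the first of these libraries, at 0.63 (adjusted p = 0.0105), and not without the other, at 0.29.

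Prkag1 (chromosome 15, 98812797 to 98831521, minus strand), which encodes the γ1 subunit that binds AMP and ATP, was at 45.6 and 48.3 CPM in WT fasted, 46 and 45.5 CPM in HRD1Alb fasted, 39.7 and 41 CPM in WT refed, and 35.1 and 49.5 CPM in HRD1Alb refed liver. The genotypes overlapped in both feeding states. Its log2 fold change for HRD1 deletion was -0.04 ± 0.19 (SE, adjusted p = 0.943) in fasted and 0.07 ± 0.19 (adjusted p = 0.81) in refed liver. The refed value was 0.29 (adjusted p = 0.0414) without the library labelled HRD1Alb refed replicate 1 and -0.20 (adjusted p = 0.174) without replicate 2. Of its exon length, 43.7% (950 bp) is shared with B130046B21Rik on the opposite strand, and whether reads were counted by strand is not given in the sources used here.

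Stk11 (chromosome 10, 80115803 to 80130682, plus strand) was at 78.9 and 85.7 CPM in WT fasted, 67.8 and 76.3 CPM in HRD1Alb fasted, 71.9 and 72.5 CPM in WT refed, and 69.1 and 87 CPM in HRD1Alb refed liver. Both fasted HRD1Alb libraries were below the WT ones, and the refed HRD1Alb libraries lay on either side. The log2 fold change was -0.19 ± 0.17 (SE, adjusted p = 0.61) in fasted and 0.11 ± 0.17 (adjusted p = 0.655) in refed liver, with 95% intervals of -0.59 to 0.20 and -0.28 to 0.51. The refed value was 0.26 without the library labelled HRD1Alb refed replicate 1 and -0.0685 without replicate 2, with no call in either. For refeeding it was -0.19 ± 0.17 in WT and 0.12 ± 0.17 in HRD1Alb liver (adjusted p = 0.677 and 0.663).

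Of the remaining AMPK isoforms, Prkag2 (γ2) had 48.1 and 46.1 CPM in WT refed and 33.4 and 29.7 CPM in HRD1Alb refed liver and fell by 0.58 on the log2 scale (SE 0.15, adjusted p = 0.0498), at the edge of the threshold. The call was lost with the replicate block (-0.58), with length offsets (-0.40) and without any one of the 6 libraries of the other groups (-0.61 to -0.55). In fasted liver its value was -0.12 ± 0.15 (adjusted p = 0.729). Prkab2 (β2) had values of 0.73 ± 0.63 (adjusted p = 0.606) and 0.20 ± 0.63 (adjusted p = 0.833), with 8.58 and 1.6 CPM in the HRD1Alb refed libraries. Prkag3, the γ subunit of skeletal muscle, stayed between 0.11 and 0.908 CPM.

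Akt1 (chromosome 12, 112653821 to 112674884, minus strand) and Akt2 (chromosome 7, 27591552 to 27640826, plus strand), the latter the AKT isoform linked most closely to insulin action on glucose, were the steadiest of the 10, with an SD of 0.108 and 0.0922 on the log2 scale over the 8 libraries, beside 0.567 for Prkaa2. Akt1 was at 67.9 and 71.5 CPM in WT fasted, 58.6 and 60.3 CPM in HRD1Alb fasted, 61.4 and 58 CPM in WT refed, and 59.1 and 61.3 CPM in HRD1Alb refed liver. The WT fasted libraries were above all others. Its log2 fold change for HRD1 deletion was -0.23 ± 0.14 (SE, adjusted p = 0.441) in fasted and 0.01 ± 0.14 (adjusted p = 0.961) in refed liver, and for refeeding in WT liver -0.22 ± 0.14 (adjusted p = 0.511). Akt2 was at 56.6 and 58.8 CPM in WT fasted, 51 and 52.5 CPM in HRD1Alb fasted, 55.1 and 55.2 CPM in WT refed, and 53.8 and 47.9 CPM in HRD1Alb refed liver. Its HRD1Alb libraries were below the WT libraries in both feeding states, by -0.16 ± 0.14 (adjusted p = 0.62) and -0.12 ± 0.14 (adjusted p = 0.576) on the log2 scale, less than its test could tell from 0. Leaving out the library labelled HRD1Alb refed replicate 1 gave refed values of 0.03 for Akt1 and -0.21 for Akt2, and leaving out replicate 2 gave -0.0206 and -0.0409, none of them called. The refed 95% intervals were -0.32 to 0.34 for Akt1 and -0.45 to 0.22 for Akt2.

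In WT liver, the other log2 fold changes for refeeding were -0.20 ± 0.20 (SE) for Entpd5, -0.30 ± 0.22 for Cpt2, -0.14 ± 0.20 for Prkaa1, -0.22 ± 0.19 for Prkag1 and -0.07 ± 0.14 for Akt2, with adjusted p from 0.581 to 0.894. In HRD1Alb liver, both refed samples were below both fasted samples for Entpd5 (-0.24 ± 0.20), Hsd17b4 (-0.20 ± 0.16) and Prkaa1 (-0.31 ± 0.20), as well as for Prkaa2, and the 5 genes that overlapped had values from -0.11 for Prkag1 to 0.12 for Stk11.

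Around these genes, 10 lists of pathway members held 114 other genes, of which 109 were tested. They gave 1 call in fasted and 18 in refed liver (0.917% and 16.5%, beside 1.35% and 11.9% of all genes). In refed liver, 4775 of all 14328 tested genes had an unadjusted p under 0.05. The 10 other AMPK subunits, LKB1 partners and AMPK kinases gave 3 calls in refed liver, all lower: Camkk2, a calcium-dependent kinase that phosphorylates AMPK, at -0.99 (adjusted p = 0.0276), the LKB1 partner Stradb at -0.57 (adjusted p = 0.0471), and Prkag2. Camkk2 was at 19.8 and 18 CPM in WT refed and at 9.04 and 9.97 CPM in HRD1Alb refed liver. With length offsets none of Camkk2, Stradb and Prkag2 passed the threshold, at -0.58, -0.33 and -0.40. Of the 11 tested kinases of the LKB1 family, none was called (2 at an unadjusted p under 0.05, 2 in DESeq2, 0 in limma-trend). Of 15 AMPK substrates and outputs, 3 were called lower and 1 higher. Fnip2, a folliculin partner, was at -1.28 (adjusted p = 0.0199), the carbohydrate-responsive factor gene Mlxipl at -1.36 (adjusted p = 0.0292), and Tbc1d1, a regulator of glucose transporter traffic, at 1.04 (adjusted p = 0.0352).

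On the insulin side, the insulin receptor gene Insr was the 1 called of 14, at 94 and 57.1 CPM in HRD1Alb refed against 150 and 162 CPM in WT refed liver (log2 fold change -1.04, adjusted p = 0.0363). Among 11 tested brakes on AKT only Trib3, a pseudokinase that binds AKT and an ER stress target, was called, at 4.47 (adjusted p = 0.00895), with 3.41 without the library labelled HRD1Alb refed replicate 1 and 5.07 without replicate 2. None of 15 AKT substrates and outputs was (6 at an unadjusted p under 0.05, beside 4775 of all 14328 genes, 2 in DESeq2, 0 in limma-trend). The ENTPD family and its partners gave 3 higher and 1 lower of 10 tested. Entpd2 and Entpd1, ectonucleotidases of the cell surface, rose by 1.52 and 1.38 on the log2 scale (adjusted p = 0.0144 and 0.022), while Entpd8 fell by 1.04 (adjusted p = 0.0141). The carnitine shuttle gave 2 lower of 8, Acsl1 at -1.37 (adjusted p = 0.0146) and Cpt1a, the rate-limiting step of fatty acid entry into mitochondria, at -0.88 (adjusted p = 0.0249). Peroxisomal β-oxidation gave 3 lower of 13, among them Scp2 at -1.67 (adjusted p = 0.0105) and Acox3 at -0.80 (adjusted p = 0.0209, not called with length offsets, at -0.38). Scp2, whose product holds a peroxisomal thiolase, was also the 1 fasted call, at 3274 and 3497 CPM in WT and 1117 and 1152 CPM in HRD1Alb liver (-1.58, adjusted p = 0.0297). Of 5 tested HRD1 partners outside the 10 genes, none was called in refed liver (1 at an unadjusted p under 0.05, 0 in DESeq2 and limma-trend).

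Among 8034 genes with a mean of at least 10 CPM, the profiles over the 8 libraries nearest to each gene were found by the root mean square (RMS) distance of centred log2 CPM. They were Slu7 for Entpd5 (RMS 0.0543), Xylt2 for Cpt2 (0.0889), D19Ertd386e for Hsd17b4 (0.0685), Tmem30a for Prkaa1 (0.0627) and 1300018J18Rik for Prkaa2 (0.0751). For the others they were Ankmy2 for Prkab1 (0.0828), Tmem111 for Prkag1 (0.0496), Glrx2 for Stk11 (0.0297), Ext2 for Akt1 (0.0392) and Mapkap1 for Akt2 (0.0341). The second nearest were AI314180, Ces2a, Slc20a2, Pard3, Rffl, Svip, Ciao1, Bpgm, Riok3 and Tmem175, in the same order. The SD of the genes themselves ran from 0.0922 for Akt2 to 0.567 for Prkaa2, and genes that vary little lie near each other on this measure. The distances were not compared with those of other genes, so the pairs are only a description.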

How the data were processed

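The values used are whole-number counts of reads per gene symbol that the authors deposited, with 1 file per sample and no normalization. The study's methods name ERANGE for counting, while the submitters' processing notes name cutadapt, STAR, HTSeq and DESeq2 with the build mm10. Versions, strand setting and annotation are not given in the sources used here.

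Samples were grouped by their labels. The tests used edgeR 4.0.16 under R 4.3.3. The filterByExpr function (minimum count 10, minimum total 15) left 14328 of 23337 genes. One quasi-likelihood model with 4 groups was fitted after TMM scaling, with Benjamini-Hochberg adjustment across every tested gene. Exact permutation of 2 against 2 samples reaches no p below 0.333, so the p-values rest on the spread shared across genes. Standard errors were taken from the F statistic and the size of the log2 fold change. Lengths and positions came from GENCODE M21 (GRCm38), matched for 97.9% of symbols. Promoters came from RefSeq (GRCm38.p6) for 9 of the 10 genes, and Hsd17b4, on chromosome 18, was left out of them. The 10 genes and all lists were chosen with earlier results of these data known. Named genes were the 10, Syvn1, the remaining isoforms and HRD1 partners, at most 3 called genes per list and genotype contrast, and the 2 nearest profiles of each gene, of which some are not reported here.

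Alternatives were RLE size factors, DESeq2 1.42.0, limma-trend (limma 3.58.1), all genes with any count, a floor of 10 counts for each sample, only the groups of a contrast, length offsets (loess, span 0.3), a replicate block, each sample left out, and, added after the data were seen, library totals without TMM and a fit without both HRD1Alb refed libraries. The edgeR step was also run on simulated counts with the mean levels and spread of these genes. Those counts held no trend on gene length, and their outcome is not reported here. Matplotlib drew the figures, version 3.10.9. Batches are not labelled.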

Additional observations from a re-analysis of the deposited data

Results flagged for a closer look

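For none of the 10 genes did the difference between the genotypes in the response to refeeding pass its test. Among the 29 genes named with tests (the 10 included), 3 (10.3%) had every refed sample above every fasted sample in one genotype and below in the other, as had 5.21% of all tested genes. Most named genes outside the 10, with Fnip2 and Trib3 among them, were picked because they were called for HRD1 deletion in refed liver. That choice used the same refed samples, so the 10.3% and the 5.21% cannot be compared as a test. Fnip2 had log2 fold changes of 0.16 in WT and -0.88 in HRD1Alb liver (interaction -1.04, adjusted p = 0.561), Prkag2 of 0.13 and -0.32 (interaction -0.45, adjusted p = 0.6), and Trib3 of -1.51 and 1.85 (interaction 3.37, adjusted p = 0.544). Of these values, the refeeding change of Trib3 in HRD1Alb liver alone passed edgeR's threshold (adjusted p = 0.0478), and none of the interactions did. Trib3 was at 241 CPM in the library labelled HRD1Alb refed replicate 1 and at 76.7 CPM in replicate 2.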

How the results depend on the processing

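The number of the 10 genes called depended on the samples in the model, and the cause was not tested. In refed liver, 22.2% of all genes were called in DESeq2, 16.9% with length offsets and 15.8% with library totals, against 11.9%. For refeeding in HRD1Alb liver, 20.4% were called in DESeq2 and 14.7% with length offsets, against 10.5%. For refeeding in WT liver, 14% were called with only the groups of the contrast, against 2.61%. In fasted liver 0 were called, against 1 (Prkaa2) with only the groups of the contrast and 3 (Hsd17b4, Prkaa1, Prkaa2) without both HRD1Alb refed libraries, and 0 to 3 over the fits that each left out one sample. In refed liver 1 was called, against 2 in DESeq2 and with length offsets (Prkaa1, Prkaa2), 0 with only the groups of the contrast, 0 with library totals, and 0 to 4 when one sample was left out. For refeeding in WT liver the count was 0, against 1 with only the groups of the contrast, 2 without both HRD1Alb refed libraries and 0 to 2 when one sample was left out. For refeeding in HRD1Alb liver it was 0, against 1 in DESeq2, 1 with length offsets and 0 to 4 when one sample was left out, and for the interaction 0, with 0 to 1 (Prkaa2, without the library labelled HRD1Alb refed replicate 1). The upper ends came from fits without one of the HRD1Alb refed libraries, where the other is assumed to vary like the other groups and up to 52.8% of all genes were called.

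Replicate numbers are shared by the labels only. Deviations of same-numbered samples correlated with r of 0.0161 to 0.179 in the 6 pairs of groups, and the replicate block left the counts of called genes at 0, 1, 0, 0 and 0, with Prkaa2 in refed liver at -1 (adjusted p = 0.0427). With the block, 119 genes in all were called in fasted liver, against 194. Prkag2 and Stradb in refed liver were no longer called with the block, at -0.58 and -0.57.

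Among the 10 genes, only Prkaa2 in refed liver was called in the model as reported, and its value kept its sign in every setting. Refed values of Cpt2 and Prkag1 changed sign between the fits that left out one HRD1Alb refed library or the other. Uncalled values did so with length offsets in refed liver, for Prkag1 (-0.21, and -0.21 with the block), Akt1 (-0.0321, and -0.0325 with the block) and Akt2 (0.12, and 0.11 with the block), for refeeding in HRD1Alb liver for Akt1 (-0.0171) and Akt2 (0.215), without a filter for Akt1 (-0.0039), with only the groups of the contrast for Prkag1 in fasted liver (0.00068), and for Prkab2 in refed liver with limma-trend (-0.26). With library totals, before the shift of the all-gene median is removed, 6 of the 10 changed sign in fasted liver (Entpd5 to 0.0142, Akt1 to 0.155), 4 in refed liver, 2 for refeeding in WT and 1 in HRD1Alb liver. When one sample was left out, fasted values ran from -0.23 to 0.17 for Prkab1, -0.0843 to 0.0371 for Prkag1 and -0.26 to 0.0424 for Atp5d. Refed values ran from -0.50 to 0.0667 for Cpt2, -0.20 to 0.29 for Prkag1, -0.0685 to 0.26 for Stk11, -0.0367 to 0.051 for Akt1, -0.0279 to 1.2 for Atp5d and -1.48 to 0.94 for Prkab2. For refeeding in HRD1Alb liver they ran from -0.38 to 0.11 for Prkag1, -0.0617 to 0.27 for Stk11 and -0.408 to 0.163 for Cpt2. There, Akt1 ran from -0.01 to 0.0399 and Akt2 from -0.114 to 0.0555. The calls of the other named genes were lost in 73 of their 216 values with one sample left out and in 38 of 277 under the other settings. Levels per length with the longest annotated transcript kept the 3 HRD1 target genes highest and Prkaa1 lowest.

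Over all genes, calls in fasted liver came to 7.64% in DESeq2, 14.6% with only the groups of the contrast, 4.02% with length offsets and 22.2% without both HRD1Alb refed libraries, against 1.35%. In refed liver they came to 22.2% in DESeq2 and 0% with only the groups of the contrast (2934 at an unadjusted p under 0.05), against 11.9%. With 2 samples per group, the SE of the genotype effects of the 10 genes was 0.14 to 0.23 on the log2 scale.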
